A study of Mus musculus with 6 samples.

Results

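Genes of integrin adhesion and of the podosome were followed in osteoclast precursors with and without lincRNA-EPS. They are the rows of the deposited count table named *Itgav*, *Itgb3*, *Itgb2*, *Itgam*, *Src*, *Ptk2b*, *Vav3*, *Pxn*, *Cttn* and *Sh3pxd2a*, 10 of its 57180 genes, and all 10 passed the filter on low counts. The members were picked by name and by role, with earlier results of these data known. Osteoclast precursors (OCPs) were grown from mouse bone marrow, and both genotypes, wildtype (WT) C57BL/6 and *lincRNA-EPS*-/- (KO), were kept for 24 h in M-CSF, a macrophage growth factor, at 40 ng/ml and then given 40 ng/ml of RANKL, the cytokine that drives osteoclast differentiation, for 48 h. The labels name the cells bone marrow-derived macrophages and the treatment RANKL induced. There were 3 libraries of stranded mRNA per genotype. The methods describe the data points of the study in general as biological replicates from a mouse or a culture of its own, and the labels do not say which of these the 3 libraries are, so p-values measure the spread between these 6 libraries. The age of the mice whose marrow was cultured was not given in the sources used here, and no LPS was named for these libraries.

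Integrins are pairs of an alpha and a beta subunit that bind proteins outside the cell and couple them to actin inside. In the bone-resorbing osteoclast the main pair is alpha-v beta-3, which signals through the kinases Src and Pyk2 to the exchange factor Vav3 and arranges podosomes, short actin columns ringed by adhesion proteins, into the sealing zone. In the macrophage from which the osteoclast forms, the pair alpha-M beta-2, also known as Mac-1, is abundant on the surface.

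The libraries held 17757351 to 19998611 counts, of which the 10 genes took 0.280% to 0.351%. The targeted transcript, listed as *Ttc39aos1*, had 20, 37 and 41 counts in WT and 0 in each KO library. KO replicate 2 stood apart in 18S ribosomal RNA, at 2.71% of its counts where the other libraries had 0.202% to 0.575%. The difference between the genotypes ran against the GC content of the transcripts, with r = -0.51 over 13176 genes, which do not count as replicates. For that reason the log2 fold change of each member is given as edgeR fits it and again after a correction of every library for GC content. Markers, other genes and fits with a library left out are without the correction unless it is named. The batch label names each library by itself, so no fit with batch as a term could be made.

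Markers of the cells were read before the members. All 17 macrophage and osteoclast markers were measured, and their summed level was 21204 to 22060 CPM (normalized counts per 1000000 counts of the library) in WT and 21460 to 23910 in KO. At an unadjusted p-value under 0.05 from edgeR, 6 of them were higher in KO, the osteoclast genes *Acp5*, *Ctsk*, *Calcr*, *Dcstamp*, *Oscar* and *Atp6v0d2*, beside 13.0% of all genes tested, and 3 were lower, *Adgre1*, *Cd14* and *Mertk* of the macrophage, beside 13.2%. The other markers, among them *Nfatc1* and *Tnfrsf11a* of the osteoclast and *Cd68*, *Fcgr3* and *Lyz2* of the macrophage, had no such p-value. The neutrophil list summed to 1469 to 1637 CPM in WT and 1884 to 2231 in KO, without overlap, with 6 higher and 2 lower of the 14 tested of 15, while its surface marker *Ly6g* was too low to be tested. *Itgam* and *Itgb2* are also expressed by neutrophils, and the part of the neutrophil genes in their values was not tested. Summed levels were 14.0 to 14.2 CPM in WT and 13.9 to 17.1 in KO for lymphocyte markers, 26.0 to 35.4 and 23.5 to 33.1 for stromal markers, with *Bglap* at 0, and 14.0 to 18.3 and 19.1 to 21.9, without overlap, for dendritic cell markers, of which 0 of 6 tested had an unadjusted p-value under 0.05 in edgeR. The platelet list, whose member *Itga2b* pairs with beta-3, summed to 205 to 222 CPM in WT and 189 to 228 in KO. In bulk RNA, fewer cells of a type and less RNA per cell cannot be told apart.

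The promoters of the alpha subunits of the osteoclast and the macrophage integrin are shown, with motifs of the myeloid factor PU.1 and of NFAT and AP-1, which act downstream of RANKL. Of the 10 members, 4 had a window in the RefSeq table for GRCm38.p6, which reaches from 250 bases before the start of the transcript to 50 after it. The following motifs were searched on both strands, GAGGAA for PU.1, TGGAAA for NFAT and TGANTCA for AP-1. They do not overlap in either window. The *Itgav* window, chr2:83724147-83724446 on the plus strand, and the *Itgam* window, chr7:128062390-128062689 on the plus strand, read as follows, with the motif matches in capitals.
Itgav: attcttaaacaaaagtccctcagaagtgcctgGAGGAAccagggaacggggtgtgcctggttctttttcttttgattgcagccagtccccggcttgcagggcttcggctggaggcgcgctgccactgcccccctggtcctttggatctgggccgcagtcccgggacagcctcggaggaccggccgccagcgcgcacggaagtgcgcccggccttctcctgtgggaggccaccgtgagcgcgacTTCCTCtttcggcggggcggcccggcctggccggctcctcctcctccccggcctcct
Itgam: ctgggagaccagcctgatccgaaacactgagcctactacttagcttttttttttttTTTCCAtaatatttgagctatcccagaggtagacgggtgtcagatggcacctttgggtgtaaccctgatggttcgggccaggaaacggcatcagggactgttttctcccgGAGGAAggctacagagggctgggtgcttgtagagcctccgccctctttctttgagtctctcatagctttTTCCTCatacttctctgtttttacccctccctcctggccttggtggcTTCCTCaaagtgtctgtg
The *Itgav* window held 2 PU.1 motifs and none of NFAT or AP-1. In the *Itgam* window there were 3 PU.1 motifs, 1 NFAT motif and no AP-1 motif. Of 32851 windows of the same length, 28.3% held the PU.1 motif, 21.4% the NFAT motif and 7.81% the AP-1 motif, and a match in letters is a description, not a binding site.

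Between KO and WT, 0 of the 10 genes passed both limits, a fold above 1.3 and a Benjamini-Hochberg adjusted p-value below 0.01 from edgeR's quasi-likelihood test, where 0.00745% of all 13428 genes did. If the limit of 1.3 is read as one on the log2 scale, no member and no gene named below from the lists reaches it. At an unadjusted p-value under 0.05, 2 members were higher in KO, *Itgav* and *Cttn*, beside 13.0% of all genes tested. In the other direction 3 members were lower, *Itgb2*, *Itgam* and *Ptk2b*, beside 13.2% of all genes. For these same 5 genes no KO library lay within the range of WT, 2 higher beside a share of 16.9% of all genes and 3 lower beside 18.8%. DESeq2 placed 0 members past both limits and 4 at an adjusted p-value under 0.05, *Itgav* and *Cttn* higher and *Itgb2* and *Ptk2b* lower, where 3.55% of the 10357 genes it adjusted were higher and 4.69% lower. With GC correction that set changed in DESeq2. *Itgb2* (adjusted p = 0.0790) and *Ptk2b* (adjusted p = 0.152) left it, *Src* (adjusted p = 0.00995) and *Itgam* (adjusted p = 0.0126) entered it, and 5.06% of genes were higher and 5.45% lower. The median log2 fold change of the members was -0.022, that of all genes 0.0091. Leaving out 1 library moved the members' median to between -0.12 without KO replicate 1 and 0.020 without WT replicate 2, and its sign turned without WT replicate 2 or KO replicate 3.

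**Figure D1:**
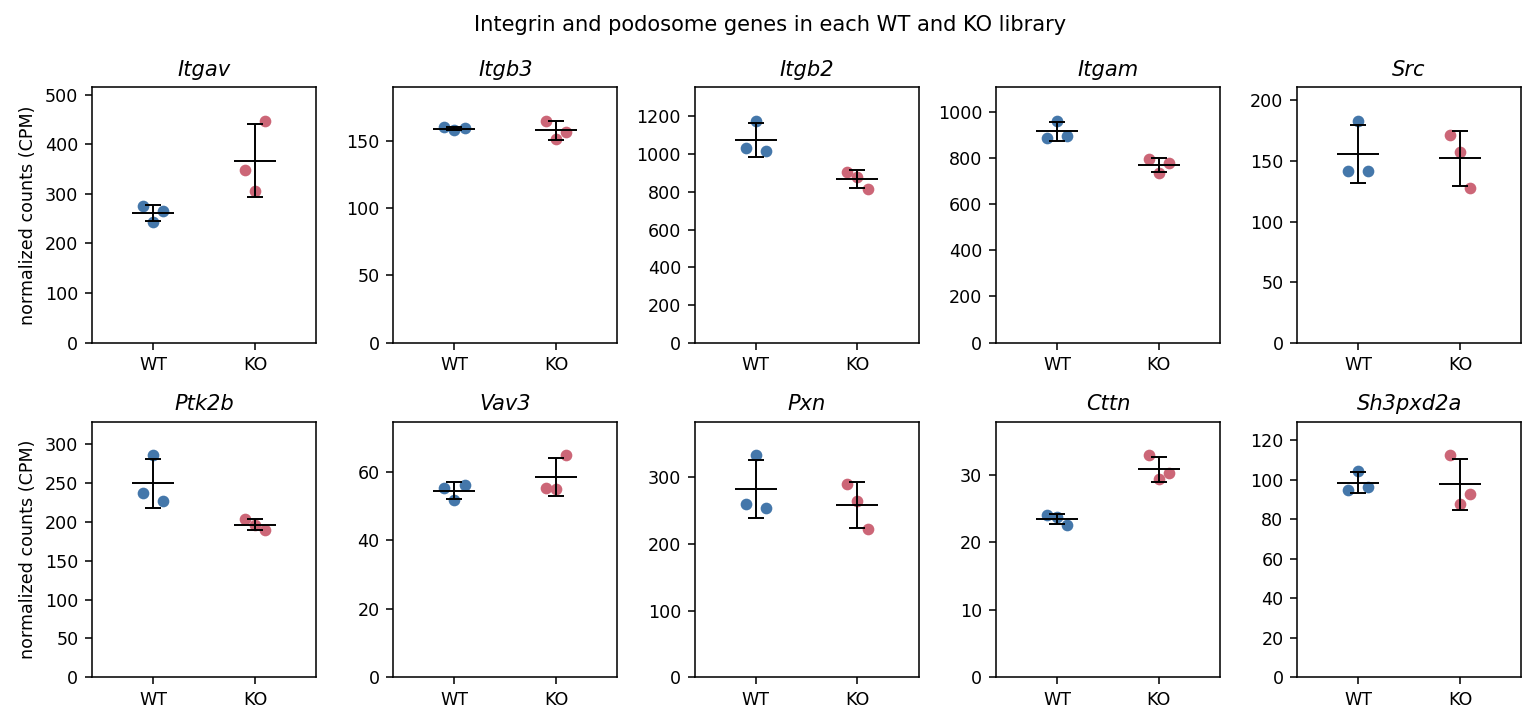
Normalized counts (CPM after TMM, linear axes from 0) of the 10 genes in each WT (blue) and KO (red) library, with the mean and SD of 3 libraries in black. The groups are apart for *Itgav*, *Itgb2*, *Itgam*, *Ptk2b* and *Cttn* and overlap for the other 5.

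The subunits of the osteoclast integrin were read first. *Itgav* (ENSMUSG00000027087, chromosome 2) encodes alpha-v, which binds ligands that carry the RGD motif. It was at 275, 243 and 265 CPM in WT replicates 1, 2 and 3 and at 348, 306 and 448 CPM in the KO replicates. Every KO library was above every WT library, and KO replicate 3 lay well above the other KO libraries. WT averaged 261 ± 16.5 CPM and KO 367 ± 73.0 CPM (SD, n = 3 each). By edgeR's quasi-likelihood test this was 0.49 on the log2 scale, with a standard error of 0.14 and an adjusted p = 0.147. Without KO replicate 3 it was 0.33 on the log2 scale. The GC content of its transcript is 43.5%, below the median of 49.2% over all genes, and with GC correction the log2 fold change came to 0.31 ± 0.086 (standard error), at an adjusted p = 0.0878 in edgeR's test. The corrected levels were 281, 277 and 273 CPM in WT and 347, 301 and 380 CPM in KO, still without overlap.

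*Itgb3* (ENSMUSG00000020689, chromosome 11), the beta-3 partner of alpha-v and a gene that rises as osteoclasts form, was at 160.1, 158 and 159 CPM in WT and at 165, 152 and 156 CPM in KO. The KO libraries lay on both sides of the WT libraries, whose mean was 159 ± 1.22 CPM (SD, n = 3). Between genotypes the log2 fold change was -0.012 in edgeR's quasi-likelihood test with a standard error of 0.084 and an adjusted p = 0.932, and its sign turned with GC correction, to 0.076. The interval of the uncorrected difference, at 95%, was -0.20 to 0.18 on the log2 scale, or 0.869 to 1.13 as a fold.

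The macrophage integrin was lower in KO on both sides of the pair. *Itgb2* (ENSMUSG00000000290, chromosome 10), the beta-2 subunit that all leukocyte integrins of the CD11 type share, had 1032, 1178 and 1015 CPM in WT and 907, 880.3 and 815 CPM in KO. All KO libraries were below all WT libraries. The means were 1075 ± 89.4 and 868 ± 47.3 CPM (SD, n = 3 each) and the log2 fold change was -0.31, with a standard error of 0.10 and an adjusted p = 0.149 in edgeR's quasi-likelihood test. After correction for GC it was -0.19 (adjusted p = 0.139 in edgeR's test), still without overlap.

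*Itgam* (ENSMUSG00000030786, chromosome 7) encodes alpha-M, known on the surface as CD11b, the usual marker of myeloid cells. Its level was 888, 962 and 895 CPM in WT and 794, 735 and 778 CPM in KO. Here too the KO libraries were all below the WT libraries, at 769 ± 30.9 against 915 ± 40.5 CPM (SD, n = 3 each). This gave a log2 fold change of -0.25 with a standard error of 0.092 and an adjusted p = 0.158 in edgeR's quasi-likelihood test. *Itgam* has a GC content of 48.9%, near the median, and its log2 fold change with GC correction was -0.26 (adjusted p = 0.0818 in edgeR's test). Its unadjusted p of 0.0240 in edgeR's test went up to between 0.0570 and 0.0874 when any WT library or KO replicate 2 was left out. *Itgam* shares 3450 exonic bases with the predicted gene *Gm49368* in the GENCODE annotation of GRCm38. That gene had 0.530% to 1.12% of the counts of *Itgam*, and adding them left the log2 fold change at -0.25.

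The genes of the alpha-v beta-3 subunits were also set against those of alpha-M beta-2 within each library. These are ratios of normalized counts with no regard to transcript length, which is the same in all libraries. *Itgb3* to *Itgb2* was 0.155, 0.134 and 0.157 in WT and 0.182, 0.172 and 0.192 in KO. *Itgav* to *Itgam* was 0.310, 0.252 and 0.296 in WT and 0.438, 0.416 and 0.575 in KO. Both ratios were higher in every KO library than in any WT library, which for *Itgav* to *Itgam* follows from the values of the single genes, since *Itgav* lay above and *Itgam* below WT in each KO library. The geometric mean was 1.23-fold higher in KO for *Itgb3* to *Itgb2* and 1.66-fold for *Itgav* to *Itgam*, and with GC correction 1.20-fold and 1.48-fold. An exact two-sided permutation test gave p = 0.1 for each ratio, the smallest that 3 libraries against 3 can give, and 0.1 after Benjamini-Hochberg adjustment over the 2 ratios, so neither could reach 0.05. In the first ratio *Itgb3* itself was at a mean of 159 CPM in WT and 158 CPM in KO.

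**Figure D2:**
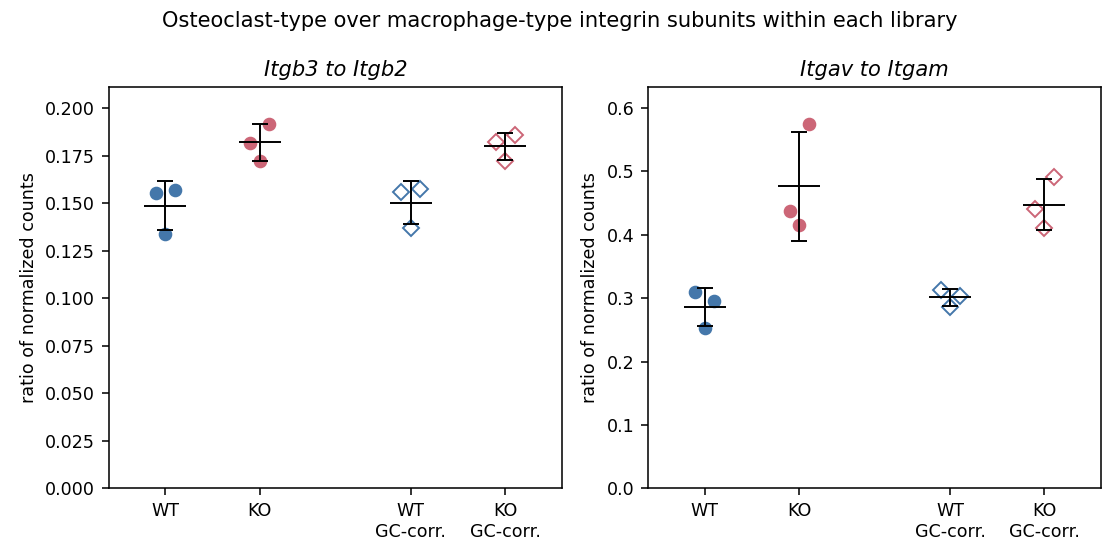
Ratio of normalized counts of *Itgb3* to *Itgb2* (left) and of *Itgav* to *Itgam* (right) in each WT (blue) and KO (red) library, on linear axes from 0, without (filled circles) and with (open diamonds) GC correction. Black bars are the mean and SD of 3 libraries, and in each panel all KO points are above all WT points of the same kind.

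Behind the integrins stand the signalling genes, of which *Ptk2b* was the one whose libraries were apart without correction. *Ptk2b* (ENSMUSG00000059456, chromosome 14) encodes Pyk2, the adhesion kinase of osteoclasts that binds Src. It was at 237, 286 and 227 CPM in WT and at 203, 195 and 189 CPM in KO. The KO libraries lay close together and below all WT libraries, among which replicate 2 was highest. Their log2 fold change was -0.35 with a standard error of 0.11 and an adjusted p = 0.147 in edgeR's quasi-likelihood test. With GC correction it was -0.19 (adjusted p = 0.163 in edgeR's test), and KO replicate 3, at 221 CPM, then lay just above WT replicate 3 at 220.7 CPM.

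*Src* (ENSMUSG00000027646, chromosome 2) encodes the tyrosine kinase without which osteoclasts form but do not make a ruffled border. Its values were 141.7, 183 and 141.7 CPM in WT and 172, 157 and 128 CPM in KO, and the groups overlapped, with WT replicate 2 the highest and KO replicate 3 the lowest of the 6 libraries. Without correction the log2 fold change was -0.031 in edgeR's quasi-likelihood test with a standard error of 0.14 and an adjusted p = 0.900, and it turned to 0.31 with GC correction. *Src* has the highest GC content of the members, 59.3%. After the correction the levels were 134, 146 and 132 CPM in WT and 168, 162 and 182 CPM in KO, with all KO libraries higher. The corrected difference had a standard error of 0.072 and an adjusted p = 0.0639 in edgeR's test, and DESeq2 with the same correction gave an adjusted p = 0.00995 at a fold below the limit of 1.3.

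*Pxn* (ENSMUSG00000029528, chromosome 5) encodes paxillin, the adaptor of the podosome ring that Pyk2 phosphorylates. It was at 259.9, 333 and 255 CPM in WT and at 289.7, 265 and 222 CPM in KO, with overlap. Its log2 fold change in edgeR's quasi-likelihood test was -0.13 with a standard error of 0.14 and an adjusted p = 0.571, and 0.15 with GC correction, the opposite sign. *Vav3* (ENSMUSG00000033721, chromosome 3), the exchange factor that activates Rac below the integrin in osteoclasts, was at 55.3, 51.6 and 56.2 CPM in WT and at 55.2, 55.0 and 64.8 CPM in KO. Of the KO libraries, replicate 3 was above the WT range. Its log2 fold change in edgeR's quasi-likelihood test was 0.10 with a standard error of 0.10 and an adjusted p = 0.535, and -0.0079 with GC correction. At 95% the interval for *Vav3* was 0.912 to 1.26 as a fold.

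The podosome core holds actin regulators, 2 of which were members. *Cttn* (ENSMUSG00000031078, chromosome 7) encodes cortactin, the Src substrate that stabilizes branched actin in podosomes. Its level was 24.0, 23.6 and 22.5 CPM in WT and 32.9, 29.3 and 30.2 CPM in KO. The libraries of each genotype lay within a narrow range, and the lowest KO library was above the highest WT library. The means were 23.4 ± 0.764 and 30.8 ± 1.86 CPM (SD, n = 3 each), with 429 to 478 counts per library behind the WT values and 509 to 631 behind the KO values. That is a log2 fold change of 0.40 with a standard error of 0.10 and an adjusted p = 0.147 in edgeR's quasi-likelihood test, which put *Cttn* at rank 315 of all genes by p-value. GC correction raised it to 0.52 with a standard error of 0.086 and an adjusted p = 0.0431 in edgeR's test, a level at which 0.454% of all genes were higher in KO, and which no other member reached. DESeq2 with the same correction gave *Cttn* an adjusted p = 0.000857, past both limits. Its transcript has a GC content of 53.1%.

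*Sh3pxd2a* (ENSMUSG00000053617, chromosome 19) encodes Tks5, the Src-bound scaffold on which podosomes and invadopodia are assembled. It was at 94.9, 104 and 96.2 CPM in WT and at 112, 87.9 and 93.0 CPM in KO, and KO replicates 1 and 2 were the highest and lowest of all 6 libraries. For this gene the log2 fold change in edgeR's quasi-likelihood test was -0.010 with a standard error of 0.11 and an adjusted p = 0.959, and 0.13 with GC correction. The uncorrected interval at 95% was 0.831 to 1.19 as a fold.

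The correction for GC content moved the members by different amounts and turned the sign of 5 of them, *Itgb3*, *Src*, *Vav3*, *Pxn* and *Sh3pxd2a*. With it, 3 members were higher in KO at an unadjusted p-value under 0.05 in edgeR's test, *Itgav*, *Cttn* and *Src*, beside 12.0% of all genes, and 3 were lower, *Itgb2*, *Itgam* and *Ptk2b*, beside 13.8%. The 5 genes of the uncorrected fit were all among them. The members' median log2 fold change became 0.10, where that of all genes was -0.0061. The correction removes any difference that follows GC content, whether it is technical or not.

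**Figure D3:**
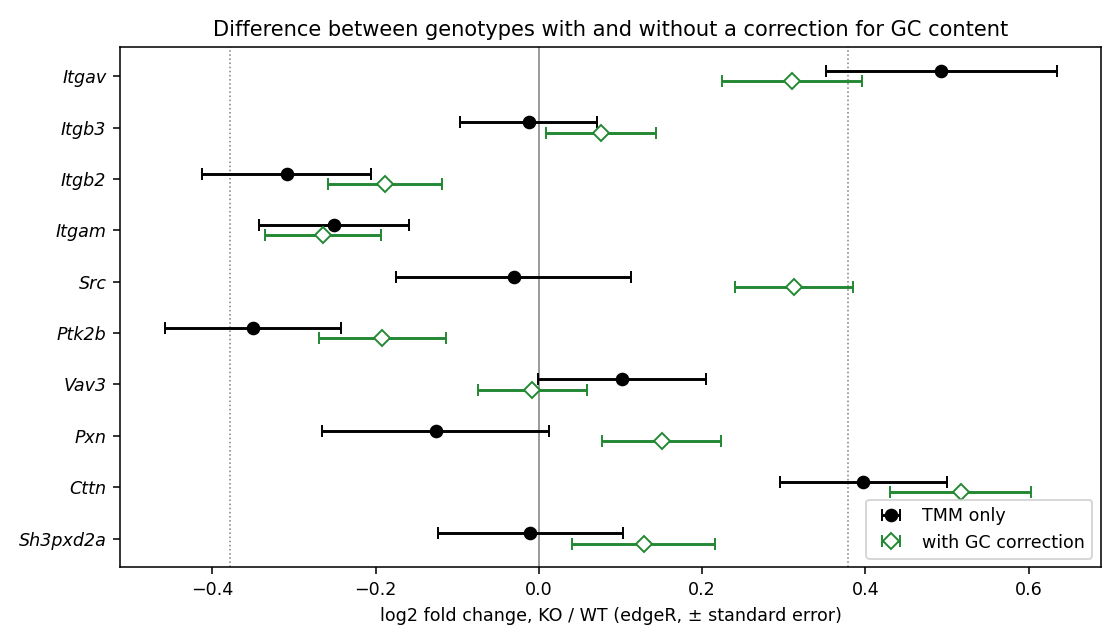
Log2 fold change between KO and WT with its standard error for each of the 10 genes, from edgeR after TMM alone (black circles) and with GC correction (open green diamonds). Dotted lines mark the fold limit of 1.3, and *Src* moves furthest between the 2 fits, from -0.031 to 0.31.

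**Figure D4:**
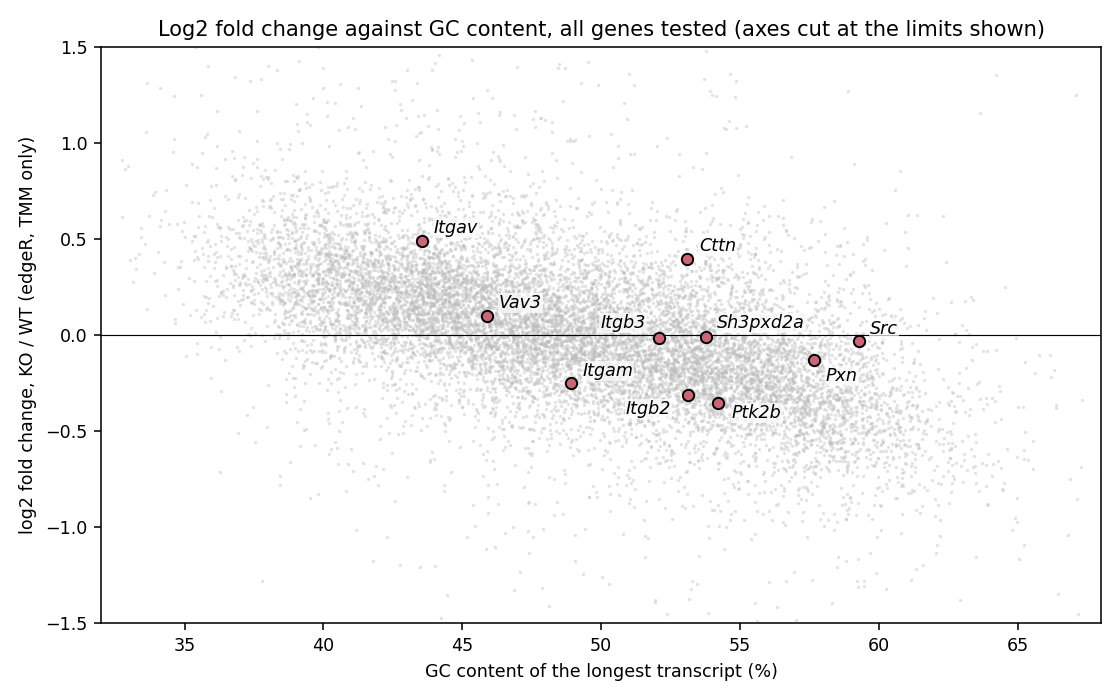
Log2 fold change from edgeR without GC correction against the GC content of the longest transcript for the genes tested (grey) and the 10 members (red), with 70 of 13176 genes outside the axes. The cloud slopes downward (r = -0.51 across genes), *Cttn* and *Src* lie above its middle, and *Itgam* lies below it.

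Levels per transcript length, in TPM (counts per base of transcript, scaled to a sum of 1000000 in each library), put the macrophage integrin at the top in both genotypes. In WT, *Itgb2* had 904 ± 98.4 and *Itgam* 488 ± 33.6 TPM (SD, n = 3 each). *Pxn* followed at 188 TPM and *Ptk2b* at 155, and these neighbours overlapped between libraries. *Src* at 99.6 and *Itgav* at 92.1 TPM also overlapped. *Itgb3* came next at 68.5 TPM, and *Vav3*, *Sh3pxd2a* and *Cttn* were lowest at 27.0, 23.5 and 17.7 TPM. No other neighbours in the WT order overlapped. In KO, *Itgb2* and *Itgam* again came first, and more of the neighbours overlapped. *Itgav* was at 121, 100.2 and 142 TPM in KO replicates 1, 2 and 3 and *Ptk2b* at 123, 112 and 105 TPM. The mean of *Itgav* was thus above that of *Ptk2b*, 121 against 113 TPM, through KO replicate 3, and below it in the other KO libraries. *Sh3pxd2a* and *Cttn*, apart in WT, had the same KO mean of 21.9 TPM and overlapped. Alpha-v stood above its partner beta-3 on this scale in both genotypes, by 92.1 to 68.5 TPM in WT and 121 to 63.6 TPM in KO. It also pairs with other beta subunits, whose part was not tested. Among beta subunit genes outside the members, *Itgb1* was at 344 TPM in WT and 370 in KO, and *Itgb5* at 61.5 and 43.1. Their log2 fold changes were 0.21 and -0.42, and with GC correction 0.065 and -0.19.

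The other integrin subunits, 15 of which were tested of 22, had 0 past the limits in edgeR, 2 higher and 3 lower at an unadjusted p-value under 0.05, where 13.0% and 13.2% of all genes were, and a median log2 fold change of -0.023. The alpha partners of beta-2 parted. *Itgal*, the alpha-L subunit of LFA-1, was at 97.0 ± 10.7 CPM in WT and 67.7 ± 9.73 CPM in KO (SD, n = 3), which is -0.52 on the log2 scale, and -0.40 with GC correction. *Itgax*, alpha-X or CD11c, was at 27.7 ± 0.525 and 33.4 ± 1.89 CPM, a log2 fold change of 0.27, and 0.34 with GC correction. *Itgax* is also a gene of dendritic cells, whose summed markers were 14.0 to 18.3 CPM in WT and 19.1 to 21.9 CPM in KO, and their part in its value was not tested. Among receptors for matrix, the collagen-binding *Itga1* had a log2 fold change of 0.32 and the fibronectin receptor *Itga5* of -0.36. With GC correction both came closer to 0, at 0.13 and -0.098, and their libraries overlapped. The highest CPM of the list, without regard to length, was that of *Itgb1*, the beta-1 subunit, with 526 ± 32.1 CPM in WT and 608 ± 84.8 in KO and overlapping libraries. The lowest adjusted p in the list was 0.147 in edgeR's quasi-likelihood test.

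Genes that activate integrins or signal from them were tested in 48 of 50 cases, 0 passed the limits in edgeR, 6 were higher and 12 lower at an unadjusted p-value under 0.05 (13.0% and 13.2% of all genes), and the median log2 fold change was -0.12. *Tln1*, encoding talin, which opens integrins from inside the cell, had the highest CPM at 1610 ± 230.5 CPM in WT and 1120 ± 334 in KO. Its log2 fold change was -0.52, and -0.30 with GC correction, when its libraries overlapped. The myeloid Src-family kinase *Fgr*, at 87.1 ± 9.86 CPM in WT and 61.7 ± 5.41 in KO, had a log2 fold change of -0.50. The exchange factor *Vav2* had one of -0.52, where its relative *Vav3* had 0.10. After GC correction *Fgr* was at -0.40, *Vav2* at -0.29 and *Vav3* at -0.0079. The small GTPases *Cdc42*, which drives podosome actin, and *Rap1b*, which switches integrins on, had log2 fold changes of 0.49 and 0.37, and of 0.28 and 0.091 with GC correction, when the libraries of *Rap1b* overlapped. With GC correction the list had 2 genes higher and 14 lower at the same p-value (12.0% and 13.8% of all genes), and 10 of the 18 genes of the uncorrected fit were kept.

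The podosome core and actin list was tested in full, 48 genes, with 0 past the limits in edgeR, 4 higher and 17 lower at an unadjusted p-value under 0.05 (13.0% and 13.2% of all genes) and a median log2 fold change of -0.14. *Flna*, encoding filamin A, which crosslinks actin and binds beta subunits, had the highest CPM at 2623 ± 244 CPM in WT and 1878 ± 371 in KO. Its log2 fold change was -0.48, and -0.34 with GC correction. *Svil*, encoding supervillin, which couples podosomes to myosin, had -0.46 and the angiomotin relative *Amotl1* -0.52, and -0.40 and -0.45 with GC correction. The tropomyosin gene *Tpm1* was at 159 ± 2.68 CPM in WT and 192 ± 5.92 in KO, a log2 fold change of 0.27. *Actr3* of the Arp2/3 complex, to which cortactin binds, had 0.36. Their GC-corrected values were 0.28 for *Tpm1* and 0.19 for *Actr3*. With GC correction 5 genes were higher and 15 lower (12.0% and 13.8% of all genes), 17 of them kept from the uncorrected fit, and all 5 genes named here had libraries apart in both.

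Of the integrin ligands made by the cells, 18 of 26 were tested, 0 passed the limits in edgeR, 1 was higher and 9 were lower at an unadjusted p-value under 0.05 (13.0% and 13.2% of all genes), and the median log2 fold change was -0.33. The highest CPM was that of *Spp1*, encoding osteopontin, a ligand of alpha-v beta-3, with 1382 ± 67.7 CPM in WT and 1534 ± 215 in KO, a log2 fold change of 0.15 that turned to -0.038 with GC correction. *Edil3*, a secreted RGD protein that alpha-v beta-3 also binds, was at 24.5, 18.2 and 23.8 CPM in WT and 36.5, 33.2 and 48.1 CPM in KO. All its KO libraries were higher, with a log2 fold change of 0.82, and 0.48 with GC correction. The matrix glycoprotein gene *Emilin1* was at 93.3, 106 and 93.2 CPM in WT and 68.1, 59.3 and 38.1 CPM in KO, and its log2 fold change was -0.82, and -0.43 with GC correction. *Lgals3bp*, a secreted glycoprotein that cells adhere to, had log2 fold changes of -0.45 and, with GC correction, -0.25. *Edil3* and *Emilin1* passed both limits in DESeq2 (adjusted p = 0.00212 and 0.00437) and had an adjusted p of 0.145 and 0.147 in edgeR's quasi-likelihood test.

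Leaving out WT replicate 2 lowered the share of all genes at an unadjusted p-value under 0.05 in edgeR to 5.61% higher and 5.60% lower, and the counts in these 4 lists with it. Without that library, the genes at an unadjusted p-value under 0.05 in edgeR went from 5 to 2 for the other integrin subunits, from 18 to 4 for activation and signalling, from 21 to 10 for the podosome core and from 10 to 5 for the ligands. Without KO replicate 3 the activation list went from 18 to 11, where 8.97% of all genes were higher and 10.3% lower. Without WT replicate 3 the other subunits went from 5 to 3, where 9.19% and 10.4% of all genes were. Without KO replicate 3 the log2 fold change of *Tln1* was -0.31, that of *Cdc42* 0.30 and that of *Actr3* 0.22, and without WT replicate 2 that of *Itga5* was -0.24. *Tln1*, *Cdc42*, *Rap1b*, *Actr3* and *Itga5* had no such p-value without WT replicate 2. With a library left out, the unadjusted p in edgeR's test went up to 0.0896 for *Itga1* and 0.0844 for *Itgax*. Of the members, *Itgav*, *Cttn*, *Itgb2* and *Ptk2b* stayed at an unadjusted p-value under 0.05 in edgeR whichever library was left out. Without KO replicate 2, the library rich in 18S RNA, the log2 fold change was 0.61 for *Itgav*, 0.43 for *Cttn*, -0.32 for *Itgb2*, -0.35 for *Ptk2b* and -0.22 for *Itgam*, and those of *Itgb3* and *Sh3pxd2a* turned from slightly below 0 to 0.015 and 0.060.

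**Figure D5:**
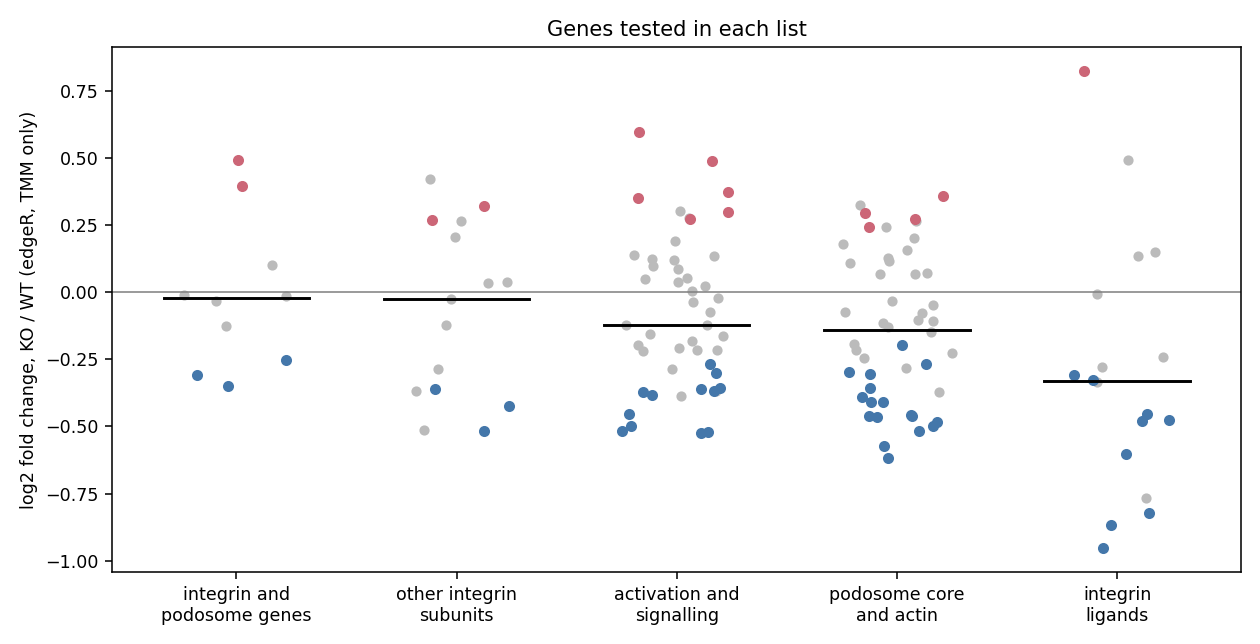
Log2 fold change between KO and WT from edgeR without GC correction for each gene tested in the 10 integrin and podosome genes and in 4 lists around them. Red and blue points are genes higher and lower in KO at an unadjusted p-value under 0.05, grey points the others, and bars the medians, which run from -0.022 for the members to -0.33 for the ligands.

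The genes most like *Itgb3* and *Itgam* over the 6 libraries were found by the root mean square difference of log2 CPM without GC correction, each gene centred on its own mean. Closest to *Itgb3* were *Casp2*, which encodes a caspase, *Larp4b*, which encodes an RNA-binding protein, and *Pcyt1a*, an enzyme of phosphatidylcholine synthesis, at differences of 0.0130, 0.0146 and 0.0193. Their log2 fold changes were -0.019, -0.0029 and -0.017, and the choice itself keeps these near that of *Itgb3*. With GC correction they were -0.071, -0.13 and -0.065, where *Itgb3* had 0.076. Closest to *Itgam* were *Ikzf1*, which encodes the transcription factor Ikaros, the histone methyltransferase gene *Ezh1* and *Ly75*, an endocytic receptor gene, at 0.0163, 0.0245 and 0.0251. These had log2 fold changes of -0.24, -0.26 and -0.21, likewise set near that of *Itgam* by the choice. After the correction they were -0.31, -0.20 and -0.33, and *Itgam* was at -0.26.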

How the data were processed

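RNA from 3 WT and 3 KO cultures was sequenced as stranded mRNA libraries at Majorbio. The submitters' processing notes name fastp, HISAT2, StringTie, RSEM and GRCm39, without versions. The authors deposited estimated counts per gene, not normalized, with 25.1% to 26.6% of detected values not whole, and their means per genotype, which were not used. Samples were grouped by the genotype label. Values were rounded to whole counts and tested in R 4.3.3 with edgeR 4.0.16 (filterByExpr, TMM, glmQLFit with legacy = FALSE, glmQLFTest, Benjamini-Hochberg over 13428 genes). Calls needed a fold above 1.3 and an adjusted p-value below 0.01. The paper's text writes 1.3 as a limit on the log2 fold change, and it was taken here as a fold. The common biological coefficient of variation was 0.142. Standard errors are the log2 fold change over the root of the F statistic. CPM are counts per 1000000 of the TMM-scaled library size. Alternatives were DESeq2 1.42.0, limma-voom (limma 3.58.1), other scalings and filters, a replicate block, each library left out, and a GC correction, a natural spline with 5 degrees of freedom per library as offsets. GC content and length are those of the longest transcript in GENCODE M21 on GRCm38, so members are placed by chromosome alone.

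The members and lists were chosen with earlier results of these data known. The genes named from each list were up to 2 higher and 2 lower with the smallest unadjusted p-value under 0.05 and libraries that did not overlap, the one with the highest CPM, and the 3 most like *Itgb3* and *Itgam*. Other genes named are cell markers. *Gm49368* and *Itgb5* were added after the data were seen. The fits were also run on simulated counts in which the changed genes differed by more than any member. That run does not speak to differences of the members' size. Precision is limited by counts and by 3 libraries a group.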

Additional observations from a re-analysis of the deposited data

How the results depend on the processing

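No member passed the limits in edgeR or limma-voom under any scaling, filter, block or left-out library. DESeq2 gave 126 calls over all genes where edgeR gave 1, with 2 among the ligands. GC correction gave 3 calls in edgeR. With DESeq2 it gave 339, of which 1 was a member, *Cttn* at 0.52, with 1 among the other integrin subunits and 2 in each of the remaining 3 lists. GC correction turned *Itgb3* to 0.076, *Src* to 0.31, *Vav3* to -0.0079, *Pxn* to 0.15, *Sh3pxd2a* to 0.13 and *Spp1* to -0.038, and DESeq2 with it gave 0.076, 0.31, -0.0076, 0.15, 0.13 and -0.038. The causes were not tested.

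The replicate numbers were not shown to pair the libraries, since same-numbered libraries had correlations of -0.22, 0.077 and 0.17. With the replicate block, 2 members were lower at an unadjusted p-value under 0.05 in edgeR, *Itgam* no longer being among them, beside 13.9% of all genes, and 2 were higher, beside 12.6%. WT replicate 1 was closer to KO replicate 3 (0.21) than to its own number. With GC correction and the replicate block 1 member was lower, *Itgam*, beside 11.7% of all genes, with *Itgb2* and *Ptk2b* no longer among them, 3 were higher, beside 10.7%, there was 1 call over all genes, and *Itgb3* was at 0.075, *Src* at 0.31, *Vav3* at -0.0087, *Pxn* at 0.15, *Sh3pxd2a* at 0.12 and *Spp1* at -0.039.

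Leaving out 1 library gave 0 to 2 calls over all genes, 2 to 3 members lower at an unadjusted p-value under 0.05 in edgeR, beside 5.60% to 16.7% of all genes, 2 members higher, beside 5.61% to 16.5%, and 2 to 6 such genes among the other integrin subunits, 4 to 22 in activation and signalling, 10 to 27 in the podosome core and 5 to 11 among the ligands. The log2 fold change ranged from -0.043 to 0.015 for *Itgb3*, from -0.12 to 0.10 for *Src*, from -0.21 to 0.0081 for *Pxn*, from -0.12 to 0.060 for *Sh3pxd2a*, from -0.054 to 0.010 for *Casp2*, from -0.048 to 0.030 for *Larp4b* and from -0.042 to 0.0011 for *Pcyt1a*. It kept its sign for the other 6 members.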
